A study of Macaca mulatta with 449 samples.

Results

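The genes described here encode subunits of the GABA-A receptor: the beta subunits GABRB1 and GABRB2, the gamma subunits GABRG1 and GABRG3, the epsilon subunit GABRE and the theta subunit GABRQ. They were chosen by name, with earlier results of these data known. Of these 6 genes, 5 had a row among the 30807 genes of the count table, each under a single Ensembl identifier: GABRB1 (ENSMMUG00000004314), GABRB2 (ENSMMUG00000018044), GABRG1 (ENSMMUG00000012820), GABRG3 (ENSMMUG00000023555) and GABRE (ENSMMUG00000010936). GABRQ was not measured in the gene counts used here.

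GABA-A receptors are chloride channels that open when the transmitter GABA binds, and they carry most of the fast inhibition in the brain. A channel is built from several subunits around a central pore, usually alpha and beta subunits together with a gamma subunit. GABA binds where a beta subunit meets an alpha subunit, the gamma subunit is needed for classical benzodiazepine binding and for anchoring at synapses, and the epsilon and theta subunits are known mainly from the hypothalamus and brainstem. Subunit composition differs between brain regions, which is why the genes were followed across the atlas.

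Total RNA depleted of ribosomal RNA was sequenced from the brains of healthy rhesus macaques (Macaca mulatta) that received no treatment. The values used here come from 408 samples, 1 piece of tissue from each of 51 sub-regions in each of 8 animals. The cortex gave 31 sub-regions (248 samples) in 5 lobes, and the other 20 sub-regions formed 15 further region groups. Rhesus 2, 3 (both 10 years) and Rhesus 6 (10 years) and 11 (9.8 years) were mid-aged, and Rhesus 4 (3.2 years), 7 (4 years), 8 (3.8 years) and 10 (5 years) were young. Rhesus 2, 3, 7 and 8 were male and the other 4 were female.

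The gene counts of a sample summed to 7784678 to 31083490 reads, with a median of 10698602. Levels are given as CPM, counts scaled to the size of the library, with library sizes corrected by the trimmed mean of M values. They are not divided by transcript length and are therefore compared for 1 gene across regions and never between genes. GABRB1 had 32 to 4355 counts in a sample (median 816.5), GABRB2 2 to 4186 (median 710), GABRG1 39 to 1505 (median 350.5), GABRE 6 to 2225 (median 49.5) and GABRG3 1 to 203 (median 36). Values of GABRG3, and of GABRE in the cortex, thus rested on few reads and were the least precise.

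The hypothalamic list, 4 of 5 genes measured, summed to 387 to 2143 CPM in the hypothalamus (HTHA) and to under 1 CPM in every animal's cortex. The thalamic list lay between 997 and 1355 CPM in the thalamus (THA), and the cerebellar list between 1869 and 2515 CPM in the cerebellum (CB). Single samples stood apart. The HTHA sample of Rhesus 6 had 3945 CPM of the neuronal gene SNAP25 against 1308 to 1661 CPM in the other 7 animals. The medulla oblongata (MO) sample of Rhesus 6 had 116 CPM of SNAP25 against 1776 to 4134 CPM in the others, and the globus pallidus (GP) sample of Rhesus 2 had 73387 CPM of the myelin gene MBP against 26546 to 38274 CPM. In the pituitary (PIT), the anterior pituitary list, 3 of 5 genes measured, summed to 349076 CPM in Rhesus 6 and 237223 CPM in Rhesus 11 against 29801.5 to 84790 CPM in the other 6 animals. All samples were kept, and values without those of the HTHA, MO and GP are given where they matter.

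All 5 measured subunits differed over the 16 region groups at a false discovery rate (FDR) under 0.05 by edgeR's quasi-likelihood test with the animal as a block. So did 99.7% of the 16829 genes tested, so the call itself says little about these subunits. The same held over the 51 sub-regions, where 5 of 5 subunits and 99.5% of genes were called. The spans differed more. Between the highest and the lowest sub-region mean, GABRB2 differed 132-fold, GABRE 50.04-fold, GABRG3 17.6-fold, GABRB1 13.9-fold and GABRG1 5.92-fold. In such tissue samples, fewer cells of a type and less RNA per cell cannot be told apart.

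**Figure D1:**
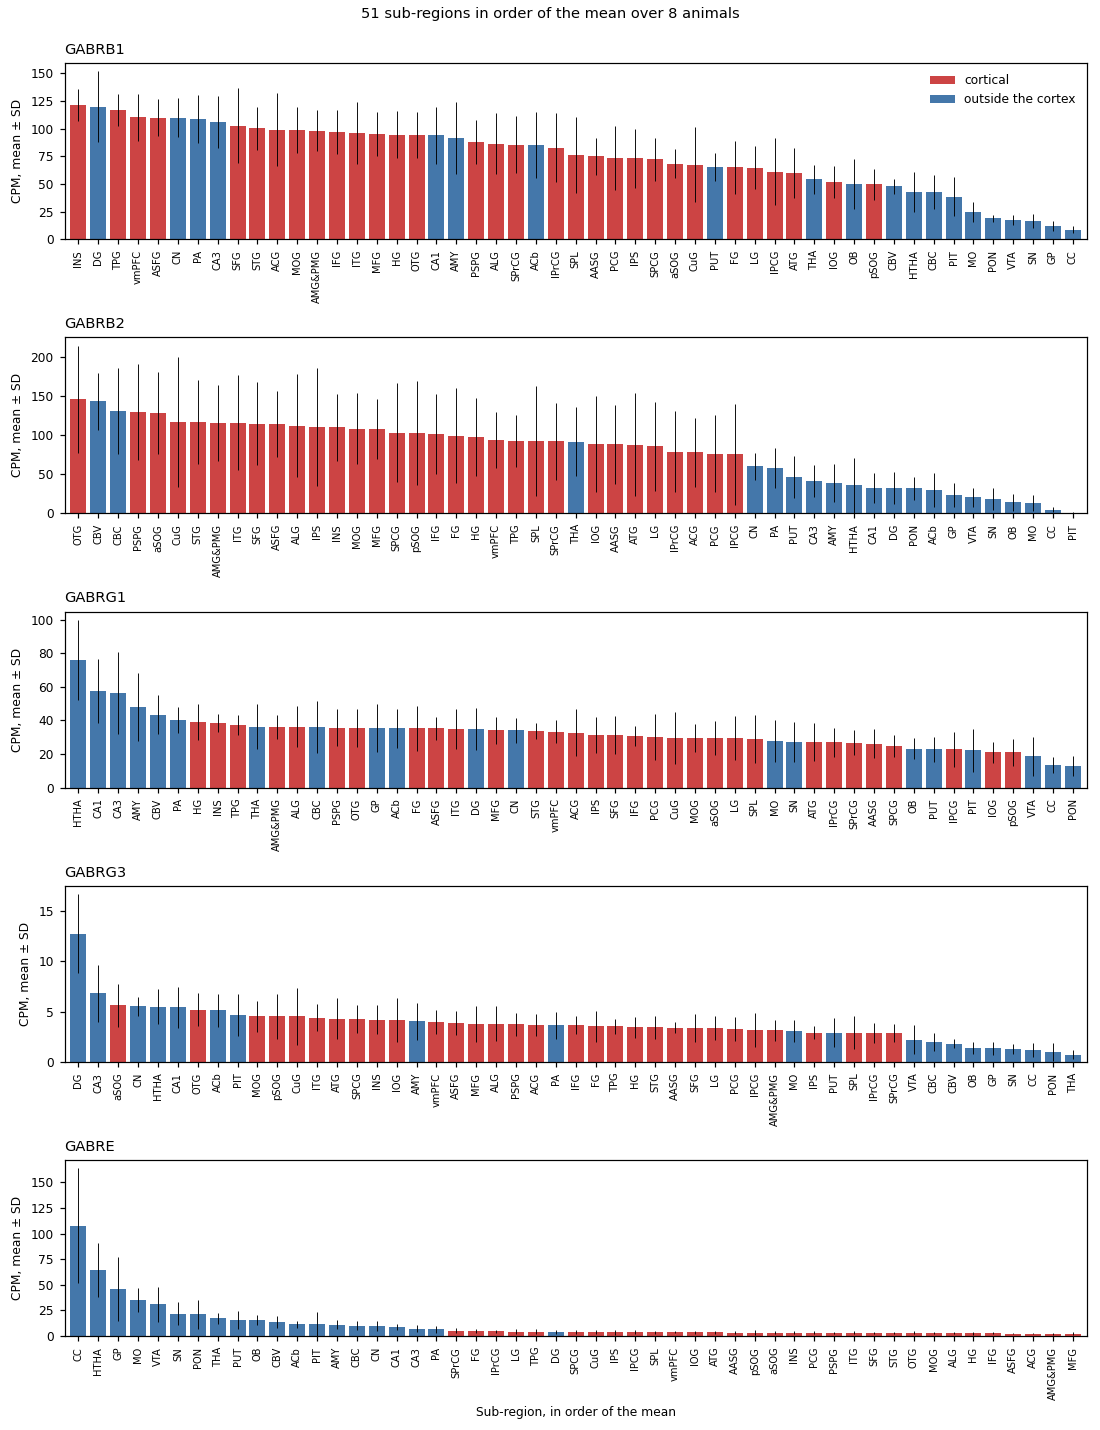
Mean CPM of each measured subunit gene in the 51 sub-regions, ordered from the highest to the lowest mean, with the SD over 8 animals as error bars; red bars are cortical sub-regions and blue bars lie outside the cortex. For GABRE, 19 of the 20 sub-regions outside the cortex stand to the left of every cortical sub-region, while the other genes mix the colours.

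GABRE, the epsilon subunit, was lowest in the cortex and highest in the corpus callosum (CC), a white matter tract. In the cortex the 8 animals lay between 1.65 and 5.08 CPM, with a median of 3.24. In the CC, Rhesus 2 had 144 CPM, Rhesus 3 62.6, Rhesus 4 154, Rhesus 6 65.9, Rhesus 7 175, Rhesus 8 13.7, Rhesus 10 143 and Rhesus 11 104. Every CC value lay above every cortical one, although Rhesus 8 was far below the rest. The difference between the groups was 4.90 on the log2 scale (SE 0.40, FDR 1.4e-21), higher in 8 of 8 animals.

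The HTHA followed with 64.6 ± 26.4 CPM (SD, n = 8; 20.0 to 97.9, median 70.9), which did not overlap the cortex either (log2 fold change 4.23, SE 0.39, FDR 1.5e-17). Its lowest value was that of Rhesus 6, whose sample stood apart. Without that sample the difference was 4.30. The GP had 45.9 ± 30.9 CPM and the MO 35.2 ± 11.3 CPM (17.5 to 50.2), 3.58 and 3.40 above the cortex on the log2 scale. The GP values ran from 2.27 CPM in Rhesus 8 to 87.2 CPM in Rhesus 2 and overlapped the cortex, while those of the MO did not. Without the 3 samples that stood apart the GP and MO differences were 3.44 and 3.17.

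GABRE was above the cortex in all 15 other region groups, and 14 passed FDR < 0.05 and an absolute log2 fold change above 1. In 8 of them no animal overlapped the cortex. The share of all genes without such overlap was not computed, here or for the other subunits. Counts of groups without overlap thus have no measure over all genes beside them. Over the 15 comparisons, 24.5% of all gene tests were called, 12.3% as higher and 12.2% as lower than the cortex. The share of genes called, in either direction, was 8.92% in the entorhinal and perirhinal cortex (PA), 9.54% in the amygdala (AMY), 12.4% in the hippocampus (HIP), 16.9% in the striatum (STR), 18.6% in the HTHA, 19.7% in the THA and 22.5% in the olfactory bulb (OB). It was 24.9% in the pons (PON), 25.7% in the CB, 28% in the substantia nigra (SN), 28.3% in both the MO and the ventral tegmental area (VTA), 34.8% in the GP, 44.2% in the CC and 44.7% in the PIT. All 15 comparisons share the same cortical samples. The smallest differences were those of the PA (log2 fold change 1.04, FDR 0.022) and of the HIP (0.97, FDR 0.019), which was under 2-fold and was not called. The PA call was lost without Rhesus 4, 8 or 11, with log2 fold changes of 0.67 to 1.02 and FDR of 0.051 to 0.058, the smallest difference being that without Rhesus 8.

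GABRE was high in some regions rich in myelin markers, but not only there. The oligodendrocyte list, 5 of 6 genes measured and none at 0 in these groups, summed to 90042 to 118153 CPM in the CC, 48737 to 104784 CPM in the GP, 29029 to 92630 CPM in the MO and 2497 to 3401 CPM in the cortex. Across the means of the 51 sub-regions its level and that of GABRE had a Pearson correlation of 0.68, and GABRE and the neuron list one of −0.60; the sub-regions share animals and libraries, and no test was made. The list did not track GABRE everywhere. The HTHA, second in GABRE, had a median of 9460 CPM of the list, below the PON (38110), VTA (53978) and SN (24085), whose GABRE was lower at 21.3, 30.8 and 21.9 CPM. Rhesus 8 had 95630 CPM of it in the CC, within the range of the others, beside the lowest GABRE of that region. The PIT, with 16.04 to 50.3 CPM of the list, had 2.43 to 36.5 CPM of GABRE and was 1.96 above the cortex on the log2 scale (FDR 1.3e-06). The part of oligodendrocyte content in the GABRE differences was not tested.

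GABRB2, a beta subunit of the most abundant synaptic receptors, was highest in the CB, with 137 ± 41.7 CPM (40.7 to 174, median 145), followed by the cortex with 103 ± 40.1 CPM (45.5 to 154, median 114) and the THA with 91.8 ± 44.1 CPM. These 3 groups overlapped, and no difference between them and the cortex was detectable. The log2 fold change was 0.49 in the CB (SE 0.41, FDR 0.29) and −0.12 in the THA (SE 0.41, FDR 0.81).

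In the PIT, GABRB2 had only 2 to 36 counts in a sample. The 8 animals had 0.14 to 3.78 CPM, with a median of 0.97, and every value lay below every cortical one (log2 fold change −6.62, SE 0.59, FDR 2.2e-19). The CC came next with 4.61 ± 2.98 CPM (−4.23, FDR 3.0e-13), and the PIT was 2.39 below the CC on the log2 scale (FDR 0.0004). GABRB2 was the only measured subunit to lie over 2-fold below each other region group at one end of its order, which 12.7% of the genes tested did in some group.

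In all, GABRB2 was lower than the cortex in 12 of the 15 groups, in 7 of them without overlap, and higher in none. Over the same groups 12.2% of all gene tests were called lower. The OB, MO, SN, VTA and GP were 2.14 to 2.97 lower on the log2 scale. The PON, HTHA, HIP, AMY and STR were 1.11 to 1.67 lower and overlapped the cortex. The HTHA sample of Rhesus 6 had 112 CPM, the next animal 55.9 CPM, and without it the HTHA difference was −2.19 in place of −1.67. The STR call was lost without Rhesus 11 (log2 fold change −1.05, FDR 0.053).

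GABRB1, the other beta subunit measured, was highest in the PA, HIP, AMY, STR and cortex and lowest in the CC and GP. The PA had 109 ± 21.8 CPM (77.3 to 140), the HIP 107 ± 21.6, the AMY 91.4 ± 32.7, the STR 86.7 ± 12.8 and the cortex 85.0 ± 14.7 (64.8 to 103, median 86.1). The first 4 were 0.03 to 0.34 above the cortex on the log2 scale with FDR of 0.24 to 0.92, and all overlapped it. At the other end, the CC had 5.09 to 13.7 CPM with a median of 8.54, below every cortical value (log2 fold change −3.25, SE 0.25, FDR 8.1e-23).

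Beside 12.2% of all gene tests over the 15 groups, GABRB1 was called lower in 8 groups: the CC, GP, SN, VTA, PON, MO, PIT and HTHA. In 7 of these no animal overlapped the cortex, the HTHA being the exception with 15.99 to 80.6 CPM against 64.8 to 103. The HTHA call sat on the 2-fold line (log2 fold change −1.02, FDR 6.1e-05). It was −1.23 without the sample of Rhesus 6, and between −0.93 and −0.99 without Rhesus 3, 7, 10 or 11. The CB, OB and THA were also lower at FDR under 0.05, by 0.89, 0.82 and 0.67 on the log2 scale and so by less than 2-fold.

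**Figure D2:**
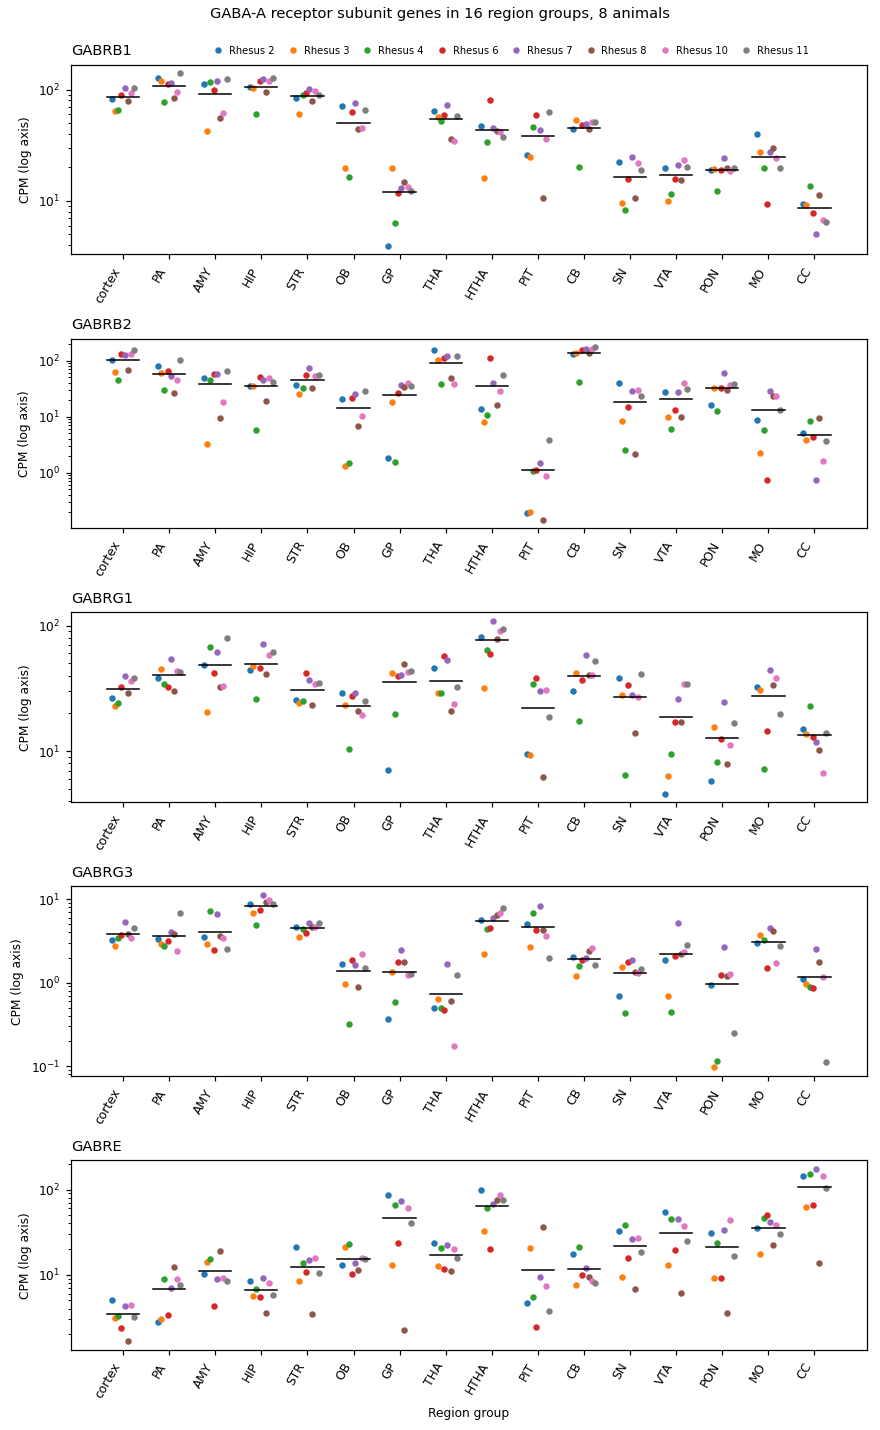
CPM on a log axis of each measured subunit gene in the 16 region groups; each point is 1 animal, the mean of its sub-regions where a group has several, and black bars are means. GABRE is lowest in the cortex (1.65 to 5.08 CPM), GABRB2 falls to 0.14 to 3.78 CPM in the PIT, and GABRB1 is lowest in the CC.

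GABRG1, a gamma subunit of limited distribution that is also found in glia, was highest in the HTHA with 76.1 ± 23.7 CPM (32.1 to 109, median 80.0) against 31.1 ± 6.49 CPM in the cortex (22.9 to 39.3, median 30.7). Only Rhesus 3, at 32.1 CPM, fell within the cortical range. The HTHA was 1.27 above the cortex on the log2 scale (SE 0.27, FDR 3.4e-05) and 0.63 above the HIP, the next group (FDR 0.045). Beside 12.2% of all gene tests over the 15 groups, GABRG1 was called lower in 2 groups. These were the PON with 12.8 ± 6.07 CPM (−1.33, FDR 2.3e-05) and the CC with 13.4 ± 4.67 CPM (−1.15, FDR 0.00013). Both overlapped the cortex, and no region group was free of overlap with it for GABRG1.

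GABRG3, a gamma subunit with low levels throughout, was highest in the HIP with 8.33 ± 1.94 CPM (4.86 to 11.2, median 8.67). The cortex had 3.78 ± 0.82 CPM (2.72 to 5.39, median 3.57), so that all but the lowest HIP animal exceeded every cortical value. The difference was 1.13 on the log2 scale (SE 0.23, FDR 2.9e-05), higher in 8 of 8 animals. The lowest level was in the THA with 0.72 ± 0.49 CPM (0.17 to 1.68, median 0.55), below every cortical value (−2.44, SE 0.30, FDR 3.9e-12). GABRG3 was also called lower in the PON, CC, SN, GP and OB, by 1.42 to 2.07 on the log2 scale, and none of these groups overlapped the cortex. The THA thus stood near the top of the order for GABRB2 and at the bottom for GABRG3.

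Over the 5 measured subunits and 15 region groups, 44 of 75 pairs were called, 16 higher and 28 lower than the cortex. Of all gene tests over these groups 24.5% were called, 12.3% as higher and 12.2% as lower. Of the 16 higher pairs, 14 were GABRE, and the others were GABRG1 in the HTHA and GABRG3 in the HIP. Groups next to each other in the order of levels were also compared; by that ordering they are the closest pairs of each gene. Of 15 adjacent pairs per gene, GABRB1 and GABRB2 each had 2 at FDR under 0.05 and the other 3 genes 1 each. For GABRE that pair was the HIP above the cortex, while the CC and HTHA at the top did not pass (0.67, FDR 0.07). For GABRB1 the steps were from cortex to THA (0.67, FDR 0.0079) and from PIT to MO (0.61, FDR 0.014), for GABRB2 from MO to CC (1.29, FDR 0.017) and from CC to PIT, and for GABRG3 from HIP to HTHA (0.63, FDR 0.024). Over all 120 pairs of region groups, not ordered by level and so no measure for adjacent pairs, a median of 64.5% of genes passed the same threshold.

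**Figure D3:**
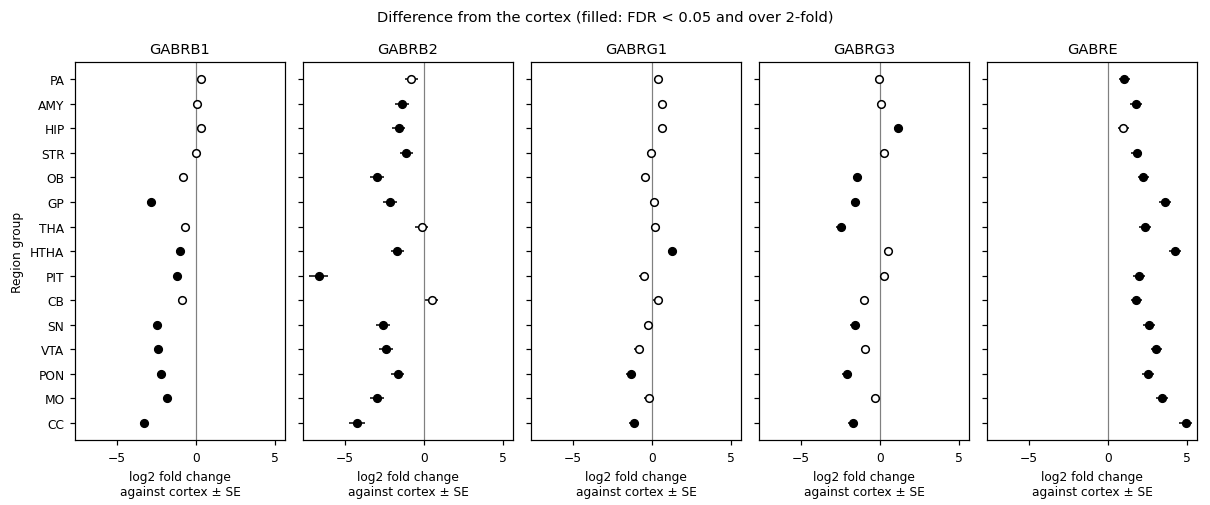
Log2 fold change of each region group against the cortex with its SE, for the 5 measured subunit genes; filled points have an FDR under 0.05 and an absolute log2 fold change above 1, open points do not. All 15 GABRE points lie to the right of 0, and the lowest point of all is GABRB2 in the PIT at −6.62.

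Other genes of GABA signalling were read from a list of 29 genes for GABA synthesis, transport, receptor subunits and anchoring, of which 27 had a row and 25 were tested. In the CC 20 of 25 were called, 2 higher and 18 lower, where 44.2% of all genes were called, and the median log2 fold change of the list was −2.32. The chloride exporter SLC12A5 was lower there by 4.99 and the chloride importer SLC12A2 higher by 2.62 on the log2 scale. In the PIT 19 were called, 1 higher and 18 lower, beside 44.7% of all genes. The GABA-B receptor subunit GABBR2 fell by 6.77 on the log2 scale there and the rho subunit GABRR1 rose by 10.12. In the CB 11 were called, 4 higher and 7 lower, beside 25.7% of genes, with the granule cell subunit GABRA6 higher by 10.15. In the HTHA 8 were called, 3 higher and 5 lower, beside 18.6%, and in the HIP 10, 3 higher and 7 lower, beside 12.4%. The fewest were called in the PA, 2 higher and 0 lower, beside 8.92%.

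The subunits also paired with other genes in their regional profile. Over the means of the 51 sub-regions, on the log2(CPM + 1) scale and among 13214 genes, profiles close to GABRB2 were those of SOGA3 and KIAA1549L (Pearson r 0.93 each). Profiles close to GABRB1 were those of LMTK3 and DLG4 (r 0.95 each), of which DLG4 encodes a scaffold of the excitatory postsynaptic density. GABRE was most like CD82, ENOSF1 and CUEDC1 (r 0.93 to 0.95). GABRG1 and GABRG3 had no match as close, the nearest being DMD (r 0.75) and C8H8orf34 (r 0.83). Among the members, GABRB1 and GABRE had an r of −0.77, GABRB2 and GABRE −0.69, and GABRB1 and GABRB2 0.64. These are descriptions over sub-regions that share animals and libraries. In a newer macaque assembly, used for gene order only, GABRB1 neighbours GABRA4, GABRG1 neighbours GABRA2, GABRG3 neighbours GABRA5 and GABRQ neighbours GABRA3. The other members have no such neighbour: GABRB2 lies between LOC144329596 and LOC144341292, and GABRE between MAGEA4 and MAGEA10.

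Within the cortex, 3 of 5 measured subunits differed over the lobes. So did 61.5% of 17478 genes, so the count itself says little about these subunits. GABRB1 was highest in the temporal lobe with 102 ± 15.5 CPM (77.5 to 124) and the frontal lobe with 97.9 ± 15.3 CPM (77.8 to 121), and lowest in the occipital lobe with 56.5 ± 10.1 CPM (44.5 to 71.9). The occipital values lay below every temporal and every frontal one. The frontal lobe was 0.77 above the occipital lobe on the log2 scale (SE 0.10, FDR 2.3e-08; 59.5% of genes called) and the temporal lobe 0.81 above it (log2 fold change of occipital against temporal −0.81, FDR 1.3e-08; 51.9% called). The insula (INS, 121 ± 14.4 CPM) and temporal polar gyrus (TPG, 117 CPM) were the highest cortical sub-regions, and the posterior superior and inferior occipital gyri (49.7 and 51.5 CPM) the lowest.

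GABRG1 was also lowest in the occipital lobe, with 23.8 ± 7.25 CPM against 35.4 ± 6.53 CPM in the temporal lobe (−0.57, SE 0.13, FDR 0.00033, lower in 8 of 8 animals). GABRG3 ran the other way. It was highest in the occipital lobe with 4.77 ± 1.47 CPM, above the limbic cortex (log2 fold change of limbic against occipital −0.50, FDR 0.00083; 47.2% called) and the parietal lobe (0.42, FDR 0.006; 32% called). The lobes overlapped for both genes. GABRE lay between 3.38 and 3.54 CPM in every lobe (FDR 0.92), and GABRB2 did not pass the test over lobes (FDR 0.10). Its limbic level was lower than the occipital one (87.5 ± 47.02 against 107 ± 48.1 CPM, log2 fold change −0.52, FDR 0.032), in 5 of 8 animals. Without Rhesus 11 the test over lobes passed for GABRB2 (FDR 0.0084).

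In the hippocampus 3 of 5 subunits were called between CA1, CA3 and the dentate gyrus (DG), beside 32.7% of genes. The DG set the pattern in opposite directions. GABRG3 was highest there with 12.8 ± 3.94 CPM (5.22 to 18.3, median 13.1), the highest mean of all 51 sub-regions and 1.87-fold that of CA3, the next. CA1 had 5.42 ± 2.04 CPM and was lower in 8 of 8 animals (log2 fold change against DG −1.25, SE 0.25, FDR 0.0013; 31.5% called). GABRE was lowest in the DG with 3.93 ± 1.60 CPM, against 8.58 ± 3.07 CPM in CA1 (1.13, SE 0.21, FDR 0.00074, higher in 8 of 8). The oligodendrocyte list was also lowest in the DG, at 1508 to 3106 CPM, against 3361 to 8627 CPM in CA1 and 4030 to 9476 CPM in CA3. The part of this list in the GABRE difference was not tested. GABRG1 had 34.8 ± 12.5 CPM in the DG and 57.4 ± 19.1 CPM in CA1 (0.73, FDR 0.021), a call over the 3 sub-regions that was lost without Rhesus 6, 7, 8, 10 or 11 (FDR 0.051 to 0.12). The sub-regions overlapped in all 3 genes. GABRB1 (FDR 0.08) and GABRB2 (FDR 0.40) did not pass, although GABRB1 did without Rhesus 8 (FDR 0.0496).

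In the striatum all 5 measured subunits were called between the caudate nucleus (CN), putamen (PUT) and nucleus accumbens (ACb), as were 57% of genes. GABRB1 was higher in the CN, with 110 ± 17.6 CPM (87.5 to 136), than in the PUT, with 65.4 ± 12.9 CPM (50.3 to 90.2), in 8 of 8 animals (0.76, SE 0.15, FDR 0.00096; 30.4% called). GABRG1 and GABRG3 were likewise lower in the PUT, with 22.7 and 2.89 CPM against 34.1 and 5.51 CPM in the CN, in 8 of 8 animals each (log2 fold changes of CN against PUT 0.62 and 0.95, FDR 0.0042 and 0.0078). GABRE was the exception and was highest in the PUT, with 15.9 ± 8.78 CPM against 9.89 ± 4.72 CPM in the CN (−0.64, FDR 0.02). GABRB2 was lowest in the ACb with 29.9 ± 21.5 CPM against 60.4 ± 17.3 CPM in the CN (−1.23, FDR 0.012; 34.5% called). The calls over the 3 sub-regions were lost for GABRE without Rhesus 4, 6, 7, 10 or 11 (FDR 0.073 to 0.10) and for GABRB2 without Rhesus 3, 4, 8 or 11 (FDR 0.058 to 0.068).

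**Figure D4:**
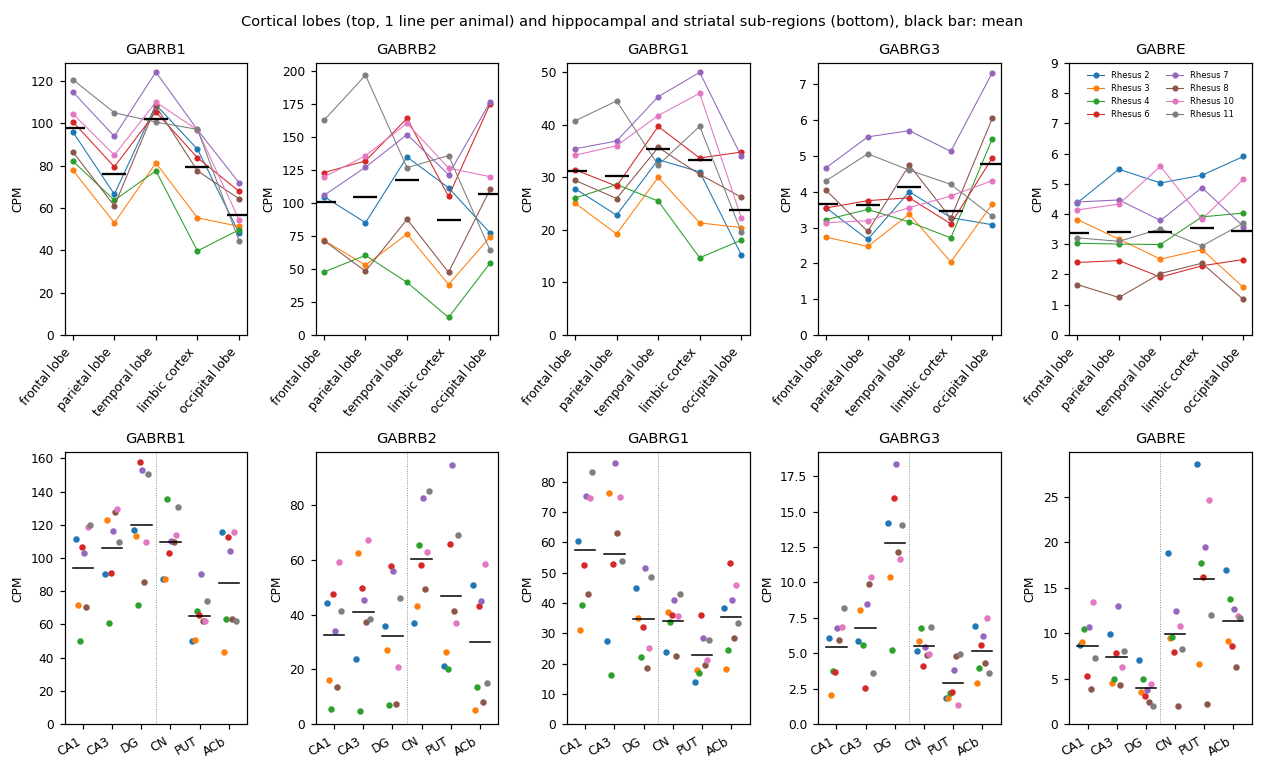
CPM of the 5 measured subunit genes in the cortical lobes (top, 1 line per animal) and in hippocampal and striatal sub-regions (bottom, 1 point per animal, left and right of the dotted line); black bars are means over 8 animals. In every animal GABRB1 is lower in the occipital lobe than in the frontal and temporal lobes, and GABRG3 peaks in the DG.

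By edgeR the cerebellar vermis (CBV) and cerebellar cortex (CBC) differed in 0 of 5 subunits at FDR under 0.05, beside 0.842% of genes. DESeq2 called 0 of 5, beside 249 of 14250 genes. At an unadjusted p under 0.05 there was 1, GABRE, with 13.5 ± 5.98 CPM in the CBV and 10.0 ± 4.46 CPM in the CBC, higher in 8 of 8 animals (edgeR log2 fold change 0.45, SE 0.12, FDR 0.18). The CBC sample of Rhesus 4 was far below the rest for 3 genes. It had 2.81 CPM of GABRB2 where the next animal had 122, 5.89 CPM of GABRB1 where the next had 44.02, and 3.60 CPM of GABRG1. Its neuron list (10566 CPM) and cerebellar list (2417 CPM) lay within the range of the other animals. Other lists did not. It had the lowest GABA neuron list (412 CPM, next animal 515) and astrocyte list (2478 CPM, next 2596) of the 8 animals, and the highest striatal list (374 CPM, next 233) and thalamic list (65.9 CPM, next 48.4). Their part in the low values was not tested. Without Rhesus 4 still 0 of 5 subunits were called, while the calls over all genes went from 120 to 614.

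Samples with little GABRB2 recurred in the cortex, where it had the widest spread between animals. Its cortical mean ran from 45.5 CPM in Rhesus 4 to 154 CPM in Rhesus 11, 3.39-fold, and the SD over animals on the log2 scale was larger than that of 99.5% of 14392 genes. Rhesus 4 was the lowest animal in 16 of 31 cortical sub-regions and Rhesus 11 the highest in 20. GABRE also varied, from 1.65 CPM in Rhesus 8 to 5.08 CPM in Rhesus 2, with an SD above that of 93.0% of genes. Rhesus 8 was lowest in 19 of 31 cortical sub-regions for GABRE and in 6 for GABRB2, so that the order of animals was not shared by both genes.

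Single cortical samples went far lower. In the posterior cingulate gyrus (PCG) of Rhesus 4, GABRB2 was at 0.78 CPM, where the median of that sub-region was 78.2 CPM. The same sample had 13.1 CPM of GABRB1 (median 83.2) and 5.82 CPM of GABRG1 (median 31.996), each the lowest of the 248 cortical samples, but 2.72 CPM of GABRE (median 2.80). In the cuneus gyrus sample (CuG) of Rhesus 8, GABRB2 was at 2.52 CPM (median 146). GABRB1 was at 17.6 CPM (median 80.8) and GABRG1 at 9.32 CPM (median 34.9) in that sample. GABRE was low there too, at 1.18 CPM (median 3.63), as was GABRG3 at 1.09 CPM (median 3.99). The neuron list had 10620 and 14605 CPM in these 2 samples, within the 6495 to 15682 CPM of all cortical samples.

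This joint movement ran through the whole cortex. With the mean of each sub-region subtracted on the log2(CPM + 1) scale, GABRB1 and GABRB2 had a Pearson correlation of 0.95 over the 248 cortical samples, and one between 0.91 and 0.99 within each of the 8 animals. That r with GABRB2 exceeded those of 98.6% of 14391 genes. GABRG1 had an r of 0.88 with GABRB2, above 94.9% of genes, GABRG3 one of 0.64, above 83.4%, and GABRE one of 0.18, above 64.6%. Correlations of this size with GABRB2 were thus common among all genes for GABRG3 and GABRE. The neuron list had an r of −0.33 with GABRB2, the oligodendrocyte list 0.06, the astrocyte list 0.33 and total counts 0.19. The samples share animals, and no test was made. No measure of RNA quality per sample was used here, so whether RNA quality moved with GABRB2 in these samples, the PCG and CBC samples of Rhesus 4 included, was not tested.

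**Figure D5:**
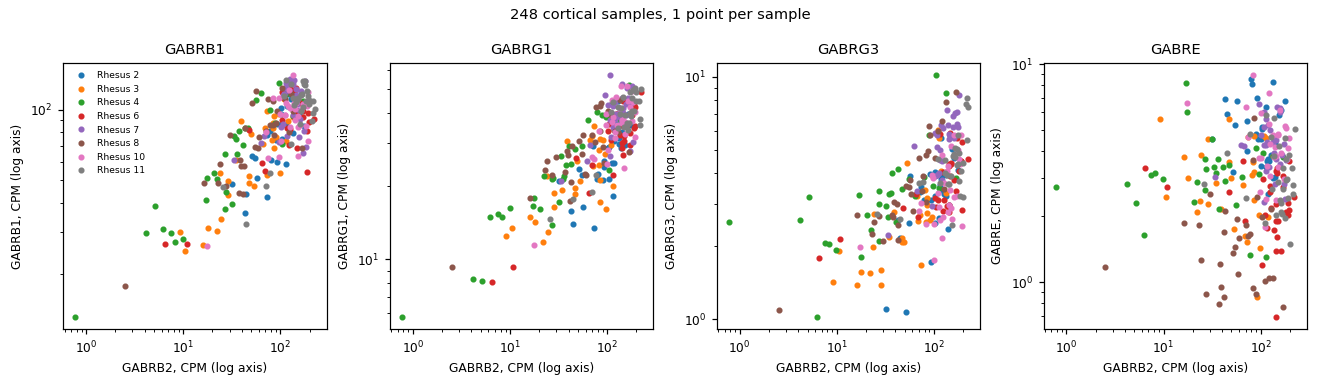
CPM of GABRB1, GABRG1, GABRG3 and GABRE against CPM of GABRB2 in the 248 cortical samples, both on log axes, with 1 point per sample coloured by animal. GABRB1 and GABRG1 fall along with GABRB2 down to the PCG sample of Rhesus 4 at the lower left, where GABRE is at 2.72 CPM (median 2.80). In the CuG sample of Rhesus 8 GABRE is low too, at 1.18 CPM (median 3.63).

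Within each region group the 4 mid-aged animals were compared with the 4 young ones in a fit that also held sex. A call needed an FDR under 0.1 and an absolute log2 fold change above 1. By edgeR 0 of 78 tested pairs of subunit and group were called, where 0.0164% of all gene tests were, and 6 had an unadjusted p under 0.05. DESeq2 called 3 of the 78, beside 802 of 243260 gene tests. The lowest FDR was that of GABRB2 in the PA, with 61.1 to 104 CPM in the mid-aged and 26.05 to 52.7 CPM in the young animals, groups that did not overlap (log2 fold change 1.00, SE 0.24, FDR 0.24). GABRE in the PA differed the other way, with 2.79 to 7.51 CPM against 7.05 to 12.4 CPM (−1.20, SE 0.32, FDR 0.24). Without Rhesus 7 edgeR called 3 pairs, these 2 and GABRB2 in the THA, and 927 in place of 40 gene tests overall. The share of all gene tests in which the age groups did not overlap was not computed, so the separation of GABRB2 in the PA has no measure beside it.

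For sex, 0 of 78 pairs were called by edgeR, beside 0.105% of all gene tests, and 5 had an unadjusted p under 0.05. DESeq2 called 2 pairs, beside 999 of 243260 gene tests. In the PIT, GABRE was at 2.43 to 7.42 CPM in females and 4.61 to 36.5 CPM in males (log2 fold change −1.89, SE 0.54, FDR 0.22), and GABRG1 at 18.8 to 38.1 CPM in females and 6.21 to 30.1 CPM in males (1.23, SE 0.45, FDR 0.22). Of the 4 female PIT samples, 2 were those with the most anterior pituitary RNA, and the part of tissue makeup was not tested. Without Rhesus 6 the differences were −1.76 and 0.92 (FDR 0.43 each), and without Rhesus 11 −1.99 and 1.35 (FDR 0.42 each). Without Rhesus 7 edgeR called 3 pairs and 2235 in place of 256 gene tests overall. GABRE (−2.20, FDR 0.0094) and GABRG1 (1.95, FDR 0.0022) in the PIT were among the 3. They were also the 2 pairs that DESeq2 called. In the tests of an age or sex difference that varies over the region groups, 0 of 5 subunits passed by edgeR or DESeq2. The edgeR interaction tests called 1.36% of genes for age and 0.683% for sex. Those of DESeq2 called 730 and 444 of 16829 genes. At an unadjusted p under 0.05 there were 0 subunits for age and 1 for sex. GABRG3 in the THA and GABRB2 in the PIT were too low to be tested for age or sex.

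For GABRQ, the transcripts that were assembled from these libraries hold a model that the study pairs with the gene, TU53319. It lies on the plus strand of chromosome X of Mmul 8.0.1, from 146309507 to 146329223, with 9 exons that add to 6450 bases, 4995 of them in the last exon. Its expression was not analysed here.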

How the data were processed

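RNA of 8 animals was depleted of ribosomal RNA and made into directional libraries. Counts of 51 sub-regions were used, and the midbrain libraries were not analysed here. Per the methods and processing notes, the authors used FastQC 0.11.4 and Trim Galore 0.4.4 on the reads, HISAT2 2.0.5 with the Mmul 8.0.1 assembly for mapping, and HTSeq 0.6.1 with Ensembl 91 for counting. The deposited table holds raw counts of reads. Whether strand was used, and how overlaps were resolved, is not given in the sources used here, so reads of overlapping or antisense genes may be shared. Of the deposited transcript assembly, the coordinates and exons of 1 transcript were used, and the ATAC-seq data were not used here.

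The members and gene lists were chosen with earlier results of these data known. All 6 members were to be named in every comparison; further genes named were the 3 with the closest regional profile to each member, the 3 called genes of the GABA list with the largest change in each direction, and markers on which a result turned. Some of these genes are not reported here. A reference table paired 17572 of the 30807 identifiers with a symbol. In R 4.3.3, counts were tested with edgeR 4.0.16 (TMM normalization, filterByExpr, quasi-likelihood F test) with Benjamini-Hochberg adjustment over all genes tested (FDR). The SE of a log2 fold change is its size divided by the square root of F. Counts of region groups and lobes were summed within each animal, and the CPM of a group or lobe is the mean over its sub-regions in an animal. Same-numbered samples came from the same animal per the labels, so comparisons between regions had the animal as a block. Age stage and sex had each other as covariate. Calls between regions needed FDR < 0.05, with an absolute log2 fold change above 1 against the cortex, and calls for age stage and sex FDR < 0.1 and an absolute log2 fold change above 1. Profiles were compared on log2(CPM + 1) over genes with at least 1 CPM in a sub-region.

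Alternatives were DESeq2 1.42.0, its size factors in edgeR, the study's detection rule (a count above 1 in at least 3 samples), no block or covariate, each animal left out, and samples left out. The fits were tested on simulated data. Levels and figures used Python 3.11.15, pandas 2.3.3, numpy 2.4.6, scipy 1.17.1 and matplotlib 3.10.9.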

Additional observations from a re-analysis of the deposited data

Results flagged for a closer look

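Each measured subunit was checked for an animal far from the other 7 in the 16 region groups and in the 8 hippocampal, striatal and cerebellar sub-regions, 120 sets of 8 values, by the gap to the nearest animal as a share of the whole range. The check found 8 such values in the 120 sets. Chance gives about 1 in 20 sets, so the number found was close to what chance gives. Rhesus 4 was low in the cerebellum, with 20.1 CPM of GABRB1 in the CB (next animal 44.1) and 5.89 CPM in the CBC (next 44.02), and with 40.7 CPM of GABRB2 in the CB (next 134) and 2.81 CPM in the CBC (next 122). The 4 values share 1 CBC sample, since the CB value is the mean of CBC and CBV. In that sample the hindbrain list was at 0.615 CPM where the next animal had 7.65, and the dentate gyrus list at 0.527 where the next had 11.3, while the neuron and cerebellar lists lay within the range of the others. Their part in the low values was not tested.

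The HTHA sample of Rhesus 6 had the highest GABRB2, 112 CPM, where the next animal had 55.9. The same sample had 3945 CPM of SNAP25 against 1308 to 1661 CPM in the others. The part of neuronal content was not tested beyond leaving the sample out.

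In the PIT, Rhesus 11 had 3.78 CPM of GABRB2 (next animal 1.4998). In the PA, Rhesus 11 had 6.72 CPM of GABRG3 (next 4.04). In the PON, Rhesus 7 had 2.67 CPM of GABRG3 (next 1.26).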

How the results depend on the processing

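DESeq2 size factors, the detection rule, DESeq2, the fit without the HTHA sample of Rhesus 6 and, chosen after seeing the data, the fit without 3 samples that stood apart left the counts for the 16 region groups (5 of 5) and the pairs against the cortex (44 of 75, 44 to 46 under these) within 1.5 times, as the first 3 did for the 51 sub-regions, the lobes, the hippocampus and the striatum. No direction reversed under any setting run, for the pairs called against the cortex and the 5 age and sex pairs followed. Directions between lobes and within the hippocampus, striatum and cerebellum were fitted in the main setting only. With an absolute log2 fold change above 2 against the cortex, 23 pairs were called, beside 24132 of 252435 gene tests. For age stage DESeq2 called 3 pairs in place of 0, and for sex 2 in place of 0. Over all genes it also called 802 and 999 tests in place of 40 and 256.

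Without the replicate block, 1 subunit in place of 3 was called between the lobes and 3 in place of 5 in the striatum. GABRG1 and GABRG3 lost the lobe call (FDR 0.19 each), GABRE and GABRB2 the striatal one (FDR 0.24 and 0.12), and GABRG1 the hippocampal one (FDR 0.12). Against the cortex 43 pairs were called without the pairing. The age and sex tests have no block, as each animal has 1 age stage and 1 sex, and called 0 pairs also without the covariate.

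With each animal left out in turn, 5 to 5 subunits were called over the region groups, 41 to 45 pairs against the cortex, 3 to 4 subunits between lobes, 2 to 3 in the hippocampus, 3 to 5 in the striatum (3 without Rhesus 4 or 11), 0 to 0 in the cerebellum, 0 to 3 pairs for age stage and 0 to 3 for sex (3 each without Rhesus 7), and 0 to 0 in both interaction tests. Leaving out animals was not run over the 51 sub-regions. Of the 3 closest profiles, a pseudocount of 0.1 kept 3 for GABRB1, GABRG1 and GABRG3 and 2 for GABRB2 and GABRE, and Spearman's rho kept 3 for GABRG1, 1 for GABRB2 and 0 for the others. Few counts limit GABRG3, most of all in the THA, PON, CC, SN, GP and OB, and GABRB2 in the PIT.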
